A study of Mus musculus with 6 samples.

Results

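The 9 transcription factors described here, Cux1, Cux2, Rorb, Fezf2, Bcl11b, Tbr1, Foxp2, Tle4 and Pou3f1, are those commonly used to tell the layers of the cerebral cortex apart. They were chosen by gene symbol from the 32285 genes of the matrix, and each symbol matched 1 row. The rule uses symbols and no measured value, though earlier results of these data were known when the genes were chosen. Nuclei came from flash-frozen forebrain of mice at postnatal day 16, of 3 wild-type (WT) littermates and 3 Npc1-/- mice that carry the Npc1nih allele on a mixed BALB/cJ and C57BL6/J background, with no treatment. The Npc1 deficiency is present in every cell of these animals, so neurons, glia and vessels of an Npc1-/- forebrain share it. The data are 1 matrix of 75878 barcodes from 6 droplet libraries, in which each barcode carries a library number from 1 to 6. The sources used here hold no key from these numbers to the 6 mice, so the genotypes could not be compared, and values are given over the 6 libraries as their range and median.

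Excitatory neurons of the cortex are generated in sequence and settle in layers that differ in their targets, and a small set of transcription factors fixes these identities while holding alternative ones down. Cux1 and Cux2 are homeodomain proteins of the upper layers, Rorb is an orphan nuclear receptor of layer 4, and Fezf2 and Bcl11b (also called Ctip2) specify neurons of layer 5 that project below the cortex. Tbr1, a T-box factor, Foxp2, a forkhead factor, and Tle4, a Groucho-type corepressor, mark layer 6, and Pou3f1 (also called SCIP or Oct-6) is a POU-domain factor of layer 5 projection neurons. Several of them act in other parts of the forebrain too, for example Bcl11b and Foxp2 in projection neurons of the striatum, Rorb in sensory thalamus and astrocytes, and Bcl11b in hippocampal granule cells.

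In the GENCODE M21 annotation of GRCm38 all 9 are protein-coding genes. They differ widely in length, from 3.85 kb for Pou3f1 (chromosome 4, 124656807 to 124660655, plus strand), 6.10 kb for Fezf2 (chromosome 14, 12342094 to 12348189, minus strand) and 11.2 kb for Tbr1 (chromosome 2, 61802930 to 61814114, plus strand) to 541 kb for Foxp2 (chromosome 6, 14901349 to 15441977, plus strand). Cux1 spans 319 kb (chromosome 5, 136248135 to 136567490, minus strand), Cux2 194 kb (chromosome 5, 121856366 to 122050102, minus strand), Rorb 181 kb (chromosome 19, 18930605 to 19111196, minus strand), Tle4 150 kb (chromosome 19, 14448150 to 14598051, minus strand) and Bcl11b 93.2 kb (chromosome 12, 107910403 to 108003602, minus strand). The 3 shortest genes were also the 3 with the fewest UMIs (unique molecular identifiers, 1 per captured RNA molecule), with 3494 for Fezf2, 5708 for Tbr1 and 10846 for Pou3f1 in the retained nuclei, against 68403 to 123722 for the other 6. Nuclear RNA holds introns, so levels are compared below between cells for 1 gene and never between genes.

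Promoter windows of 300 bases (250 before to 50 after a start site, RefSeq, GRCm38.p6) were found for 7 of the 9 genes, 10 windows in all, and none was used for Foxp2 and Pou3f1. Those of Cux1, Cux2, Fezf2 and Bcl11b are printed because 2 of the 4 pairs found together above expectation in single nuclei, and both pairs below it, were formed among these genes, and that of Tbr1 because it holds the homeobox core that occurred in no other window of the set. Of the 2 Cux2 windows, the one printed was chosen because it holds a marked motif, and the other, at chr5:122049802-122050101 and at the annotated gene start, holds an E-box but no other motif searched. Capitals mark motifs found on either strand among AGGTCA (ROR), ATCGAT (CUX), AGGTGTGA (T-box), TGTTTAC (forkhead), ATGCAAAT (POU octamer) and TAATTA (homeobox core).
Cux1 chr5:136565932-136566231, minus strand: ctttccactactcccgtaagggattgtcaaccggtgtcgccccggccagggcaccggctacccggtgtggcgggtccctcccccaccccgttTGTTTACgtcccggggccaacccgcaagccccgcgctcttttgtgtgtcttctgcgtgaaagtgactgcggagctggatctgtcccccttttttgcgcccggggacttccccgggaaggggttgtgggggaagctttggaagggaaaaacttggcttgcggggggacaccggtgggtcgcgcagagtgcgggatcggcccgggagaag
Cux2 chr5:122047776-122048075, minus strand: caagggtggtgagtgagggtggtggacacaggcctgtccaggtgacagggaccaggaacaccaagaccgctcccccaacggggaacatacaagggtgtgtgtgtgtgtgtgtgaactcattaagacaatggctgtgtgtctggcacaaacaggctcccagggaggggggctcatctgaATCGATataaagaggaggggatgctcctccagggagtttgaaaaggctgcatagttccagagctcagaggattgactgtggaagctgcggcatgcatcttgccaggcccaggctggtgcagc
Fezf2 chr14:12345816-12346115, minus strand: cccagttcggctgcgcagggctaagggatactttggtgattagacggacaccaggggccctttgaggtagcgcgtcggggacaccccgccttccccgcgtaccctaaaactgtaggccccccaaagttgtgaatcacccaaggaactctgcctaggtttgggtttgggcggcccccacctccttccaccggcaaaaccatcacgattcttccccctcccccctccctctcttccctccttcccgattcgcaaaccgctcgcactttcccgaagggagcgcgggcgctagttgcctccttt
Bcl11b chr12:108003365-108003664, minus strand: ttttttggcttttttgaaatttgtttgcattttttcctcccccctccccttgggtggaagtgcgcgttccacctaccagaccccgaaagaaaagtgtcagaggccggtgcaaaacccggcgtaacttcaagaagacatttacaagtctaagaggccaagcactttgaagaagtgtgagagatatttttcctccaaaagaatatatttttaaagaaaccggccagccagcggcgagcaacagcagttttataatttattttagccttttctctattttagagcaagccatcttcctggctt
Tbr1 chr2:61804203-61804502, plus strand: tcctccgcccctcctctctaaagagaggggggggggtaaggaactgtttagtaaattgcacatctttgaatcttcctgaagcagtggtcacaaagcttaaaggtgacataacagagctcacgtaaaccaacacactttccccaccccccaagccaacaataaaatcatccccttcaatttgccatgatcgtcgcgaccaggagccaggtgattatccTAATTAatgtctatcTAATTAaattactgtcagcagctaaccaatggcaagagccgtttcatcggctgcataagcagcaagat
The forkhead motif of the Cux1 window is held by 3.65% of 32851 promoter windows of the same length, the CUX motif of this second Cux2 window by 0.925%, and the homeobox core, present at 2 places in the Tbr1 window, by 5.29%. The ROR motif (16.3% of windows), the T-box motif (1.28%) and the POU octamer (1.74%) were in none of the 10 windows. The short E-box core CANNTG, in 72.3% of all windows, was in 6 of the 10. The Fezf2 and Bcl11b windows held none of the 7 motifs. These matches describe letters and show no binding.

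After removal of 11 barcodes with a mitochondrial share of at least 10%, 75867 nuclei remained, 8215 to 16109 per library, with library totals of 51342120 to 107561475 UMIs and library medians of 4471 to 5439 UMIs per nucleus. Across libraries, 631 barcode sequences occurred in more than 1 library and covered 1264 nuclei (1.67%). Nuclei were assigned to classes by raw UMIs of marker genes that are none of the 9, such as Slc17a7 (the vesicular glutamate transporter of cortical and hippocampal neurons) at 2 or more UMIs and above both Slc17a6 and the sum of Gad1 and Gad2. This gave 10496 Slc17a7-positive nuclei (1331 to 2174 per library, median depth 9475.5 UMIs), 1405 Slc17a6-positive nuclei (mainly subcortical glutamatergic neurons) and 13342 GABA nuclei (median depth 7443 UMIs), of which 2943 had most UMIs of striatal projection neuron markers, 8483 of interneuron markers and 401 of immature neuron markers. The gates were not pure, since part of the Slc17a7-positive nuclei matched another cell class (below). The classes were also not free of RNA from other cell types. Camk2a, a calcium-dependent kinase abundant in excitatory neurons, stood at 789 UMIs per 1000000 (CPM, the scale of every level below) in Slc17a7-positive nuclei, at 385 CPM in the interneuron class and also at 385 CPM in the microglia class, which should lack it. The microglia class had a median depth of 2527 UMIs, so its CPM levels given below are no measured floor for the deeper neuronal nuclei.

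The Slc17a7-positive nuclei were clustered on other genes, with the 9 factors left out. Of 29 clusters, 9 were named for a cortical layer and 4 for another region from marker lists that hold none of the 9, and the names are therefore written as "-like". These 9 layer clusters held 5129 nuclei (48.9%), and their share ran from 41.4% to 59.4% over the libraries. The 4 region clusters held 929 nuclei (8.85%). The other 4438 nuclei (42.3%) stayed unnamed. Among them, 10 clusters with 2177 nuclei matched a list of another cell class best, such as astrocytes, oligodendrocytes or microglia, 1 cluster of 755 nuclei was led by mitochondrial genes, and 5 clusters with 1506 nuclei had under 3 markers raised at least 2-fold. Intervals below are exact 95% intervals and cover counting error only, and no statistical test was run between groups.

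Among the 12 named groups, Cux1 and Cux2 were highest in those of the upper layers. An exception lies inside the layer 6 intratelencephalic or claustrum-like group. Its smaller cluster, described below, was above both upper clusters in Cux2 and above the layer 2/3-like one in Cux1. Cux1 stood at 748 CPM (interval 726 to 771; 6 libraries 595 to 844, median 809) in the layer 4-like cluster of 564 nuclei and at 421 CPM (411 to 432; libraries 361 to 530, median 414) in the layer 2/3-like cluster of 1422 nuclei. In the layer 6 corticothalamic-like cluster of 893 nuclei it was 52.8 CPM (48.0 to 57.9; libraries 32.5 to 85.7, median 50.8). Every library of both upper clusters lay above every library of that layer 6 cluster.

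Cux2 stood at 491 CPM (473 to 510; libraries 465 to 526, median 485) in the layer 4-like cluster and at 423 CPM (413 to 434; libraries 354 to 478, median 433) in the layer 2/3-like cluster. The library ranges of these 2 upper clusters overlapped for Cux2. It was 12.6 CPM (10.3 to 15.2; libraries 7.78 to 18.5) in the layer 6 corticothalamic-like cluster and 10.5 CPM (5.75 to 17.6, from 14 UMIs) in the layer 5/6 near-projecting-like cluster of 126 nuclei. In single nuclei, 92.8% of the layer 2/3-like and 93.3% of the layer 4-like nuclei had a Cux2 UMI, against 9.29% of the layer 6 corticothalamic-like nuclei. Of the microglia-class nuclei, 18.4% had one at a median depth of 2527 UMIs, against medians of 9955.5, 9099.5 and 8777 UMIs in these 3 clusters. The last share was below that of a class that should lack the gene, and the part of free RNA in it was not tested.

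Outside the upper layers, the highest levels of Cux1 and Cux2 among named clusters were in part of the layer 6 group and in thalamus-like nuclei. The layer 6 intratelencephalic or claustrum-like group of 774 nuclei joined 2 clusters that differed sharply. In the smaller, of 147 nuclei and led by Ntng2, Oprk1 and Nr4a2, Cux1 was 696 CPM (libraries 605 to 783, median 699) and Cux2 was 550 CPM (libraries 423 to 697, median 568). Cux2 there was above the layer 4-like (491 CPM) and layer 2/3-like (423 CPM) levels, with overlapping library ranges. Cux1 there lay between the layer 4-like (748 CPM) and layer 2/3-like (421 CPM) levels. In the larger, of 627 nuclei, Cux1 was 78.0 CPM (libraries 56.9 to 105, median 78.6) and Cux2 was 18.6 CPM (libraries 9.99 to 26.0, median 21.4). The library ranges of the 2 clusters did not overlap for either gene. In the thalamus-like cluster of 96 nuclei, Cux2 stood at 248 CPM (223 to 274; libraries 187 to 295, median 271) and Cux1 at 185 CPM (164 to 208; libraries 137 to 290, median 181). This Cux1 level was below the 316 CPM of the microglia class, while the Cux2 level was above the 98.6 CPM of that class. The thalamus-like cluster stood apart in its doublet scores, since 29.2% of its nuclei were among the highest 10% of their library, against 2.07% to 10.5% in the other named clusters. Without those nuclei, an alternative added after seeing the data, 68 remained, and the levels were 293 CPM for Cux2, 195 CPM for Cux1, 458 CPM for Rorb and 249 CPM for Foxp2. Bcl11b went from 45.7 to 12.9 CPM, and Fezf2 from 2.69 CPM (4 UMIs) to 0 CPM.

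Rorb was highest in the layer 4-like cluster, at 1574 CPM (interval 1542 to 1607; libraries 1324 to 1971, median 1554). The layer 5 intratelencephalic-like cluster of 858 nuclei followed at 528 CPM (515 to 542; libraries 438 to 616, median 531) and the thalamus-like cluster at 484 CPM (450 to 521; libraries 393 to 600, median 503). These 2 groups overlapped in their library ranges, and both lay below every library of the layer 4-like cluster. The leading gene of the layer 5 intratelencephalic-like cluster was Il1rapl2, which belongs to the layer 4 list, although 4 of its 5 layer 5 intratelencephalic markers were raised at least 2-fold. The layer 2/3-like cluster stood at 86.7 CPM (82.2 to 91.5; libraries 57.4 to 137, median 81.3), and the lowest group was CA3-like at 29.2 CPM. A layer 4-like nucleus with any Rorb UMI had 16.3 on average, against 3.07 in the layer 2/3-like cluster.

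Fezf2, the selector gene of subcerebral projection neurons, was detected sparsely. It stood at 56.3 CPM (interval 44.3 to 70.6, from 75 UMIs; libraries 37.9 to 71.1, median 56.3) in the layer 5/6 near-projecting-like cluster, at 30.8 CPM (26.0 to 36.2; libraries 19.0 to 41.1, median 28.1) in the layer 5 extratelencephalic-like cluster of 330 nuclei and at 18.5 CPM (15.7 to 21.6; libraries 10.5 to 25.4, median 19.3) in the layer 6 corticothalamic-like cluster. Each of these 3 library ranges overlapped the next. In the layer 2/3-like and layer 4-like clusters Fezf2 stood at 1.88 CPM (1.26 to 2.7, from 29 UMIs) and 1.60 CPM (0.731 to 3.03, from 9 UMIs). A Fezf2 UMI was found in 38.1% of near-projecting-like, 34.2% of extratelencephalic-like and 1.97% of layer 2/3-like nuclei, and in 3.14% of microglia-class nuclei. The microglia class had a median depth of 2527 UMIs, against 9213, 12945 and 9955.5 UMIs in these 3 clusters. In CPM it stood at 10.2, and the layer 6b-like (10.1 CPM) and layer 5 intratelencephalic-like (9.61 CPM) clusters were no higher.

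Bcl11b, a zinc-finger repressor needed for corticospinal axons, was highest among cortical clusters in the layer 5 extratelencephalic-like one, at 342 CPM (interval 326 to 359; libraries 290 to 445, median 337). The near-projecting-like cluster stood at 308 CPM (279 to 339; libraries 228 to 372, median 314), the layer 6 corticothalamic-like at 209 CPM (200 to 219; libraries 175 to 231, median 214) and the layer 6b-like at 159 CPM (143 to 177; libraries 142 to 178, median 155). The library ranges of neighbours in this order overlapped. In the hippocampus it reached 403 CPM (378 to 429; libraries 332 to 465, median 391) in the dentate granule-like cluster and 316 CPM (300 to 334; libraries 296 to 347, median 309) in the CA1-like cluster, but 60.3 CPM (52.6 to 68.9; libraries 27.6 to 80.1) in the CA3-like cluster. The layer 5 intratelencephalic-like cluster, at 18.4 CPM (libraries 9.0 to 38.4, median 17.9), lay with the upper clusters at 22.0 and 15.1 CPM.

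Pou3f1 was highest in the CA1-like cluster, at 44.0 CPM (interval 37.9 to 50.8; libraries 17.4 to 63.9, median 46.2), and its highest cortical level was 25.2 CPM (20.9 to 30.2; libraries 13.5 to 38.3, median 24.7) in the layer 5 extratelencephalic-like cluster. The microglia class, which should lack it, stood at 27.9 CPM (24.7 to 31.4; libraries 22.1 to 35.9, median 28.4), and in CPM no cortical cluster named for a layer was above it. Median depth was 2527 UMIs in that class and 12945 UMIs in the extratelencephalic-like cluster, where 28.8% of nuclei had a Pou3f1 UMI. The part of free RNA in these levels was not tested. The CA1-like and extratelencephalic-like library ranges overlapped, and the second also overlapped those of the layer 4-like cluster (18.6 CPM, 14.2 to 23.0) and the layer 2/3-like cluster (17.9 CPM, 11.1 to 22.1). It was 2.76 CPM (1.01 to 6.0, from 6 UMIs) in the layer 6b-like cluster. Gm2164, an antisense gene that overlaps the start of Pou3f1 (chromosome 4, 124528924 to 124657169, minus strand), showed the same 2 high groups and was looked at after its values were seen. It stood at 458 CPM (libraries 442 to 475) in the extratelencephalic-like cluster and 440 CPM (libraries 379 to 488) in the CA1-like cluster, with 78.5 CPM (libraries 52.8 to 117) in the layer 4-like cluster as the next.

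Tbr1 was highest in the layer 6 corticothalamic-like cluster, at 31.5 CPM (interval 27.9 to 35.5; libraries 27.7 to 37.3, median 30.6). The next groups were the layer 6 intratelencephalic or claustrum-like group at 18.5 CPM (15.8 to 21.6; libraries 11.0 to 29.0, median 17.7) and the layer 4-like cluster at 17.2 CPM (14.0 to 21.0; libraries 9.03 to 23.8, median 19.4). The counting intervals of the first and second groups did not overlap, while their library ranges did. It was lowest in the CA1-like cluster, at 3.57 CPM (2.00 to 5.88, from 15 UMIs), and stood at 5.30 CPM (3.43 to 7.83, from 25 UMIs) in the layer 5 extratelencephalic-like cluster. The microglia class, which should lack Tbr1, stood at 12.5 CPM.

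Foxp2 stood at 735 CPM (interval 717 to 753; libraries 629 to 887, median 719) in the layer 6 corticothalamic-like cluster, above every library of every other named group. The thalamus-like cluster followed at 239 CPM (215 to 265; libraries 139 to 333, median 233), then the near-projecting-like at 210 CPM (186 to 236; libraries 167 to 274, median 207) and the layer 6b-like at 201 CPM (182 to 220.5; libraries 125 to 249, median 202), and these 3 overlapped. In the layer 2/3-like cluster Foxp2 was 23.2 CPM (20.9 to 25.7; libraries 12.3 to 53.9). It was found in 93.1% of corticothalamic-like and 20.4% of layer 2/3-like nuclei, the second share being below the 24.4% of the microglia class.

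Tle4 had 3 high groups of near-equal level. It stood at 652 CPM (interval 635 to 670; libraries 586 to 730, median 651) in the layer 6 corticothalamic-like, at 610 CPM (578 to 644; libraries 449 to 658, median 647) in the layer 6b-like and at 592 CPM (552 to 635; libraries 536 to 692, median 590) in the near-projecting-like cluster, and their library ranges overlapped. Below them came CA3-like at 123 CPM (111 to 135; libraries 90.5 to 177) and dentate granule-like at 122 CPM (108 to 137; libraries 115 to 129). In CPM both of these were below the microglia class at 181 CPM. Median depth was 2527 UMIs in that class, against 11499 UMIs in the CA3-like and 8436 UMIs in the dentate granule-like cluster. The layer 5 extratelencephalic-like cluster stood at 41.8 CPM (36.2 to 48.1; libraries 32.6 to 64.5) and the layer 4-like cluster at 25.6 CPM (21.6 to 30.1; libraries 19.4 to 32.1).

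**Figure D1:**
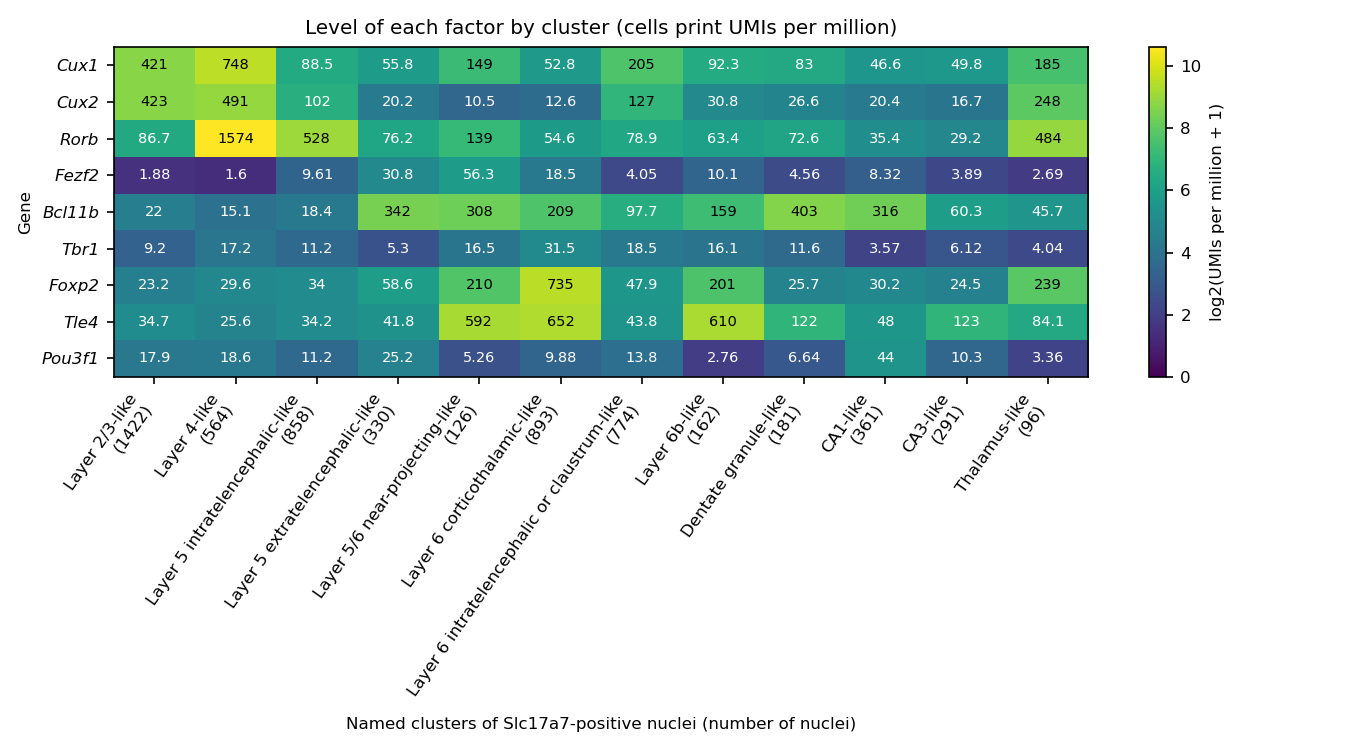
Level of each of the 9 factors (rows) in 12 named groups of Slc17a7-positive nuclei (columns, number of nuclei in brackets), in CPM, with colour on a log2(CPM + 1) scale. Cux1, Cux2 and Rorb peak in the layer 4-like column (748, 491 and 1574), Bcl11b in the dentate granule-like column (403), Foxp2 and Tle4 in the layer 6 corticothalamic-like column (735 and 652). The layer 6 intratelencephalic or claustrum-like column joins a smaller cluster, above the layer 4-like column in Cux2, with a larger one far below it.

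The comparison of deep with upper layers asked how far each factor separated them in clusters made without the 9 rows. Antisense genes that overlap Cux1, Cux2 and Pou3f1 were kept in the clustering. With these left out too, an alternative added after seeing the data, the same factors were called, and the log2 ratios were -2.19 for Cux1, -2.58 for Cux2 and -0.53 for Pou3f1. Deep-layer clusters (layers 5, 6 and 6b) held 3143 nuclei and upper-layer clusters (layers 2/3 and 4) 1986. A call needed a 2-fold difference over all nuclei and the same direction in each of 6 libraries. Of the 9 factors, 4 were higher in the deep clusters by this rule, as were 3.48% of 11996 genes with at least 200 UMIs, and 3 were lower, as were 1.81% of genes. The counts did not change under any of the other clusterings, scalings, doublet filters and left-out libraries that were run.

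On the upper side, Cux2 stood at 69.1 CPM in deep and 441 CPM in upper clusters, a log2 ratio of -2.68 (interval -2.74 to -2.61; libraries -2.99 to -2.54). Cux1 stood at 106 and 509 CPM, a log2 ratio of -2.26 (-2.32 to -2.21; libraries -2.64 to -2.01). Without the cluster led by Ntng2, Oprk1 and Nr4a2, a comparison added after seeing the data, the log2 ratios were -3.31 for Cux2 and -2.75 for Cux1. Rorb stood at 212 and 484 CPM, a log2 ratio of -1.19 (-1.23 to -1.15; libraries -1.63 to -1.03), and at the coarser clustering of resolution 0.5 its log2 ratio was -2.80. Of the upper clusters, the layer 4-like one, at 1574 CPM, was above the deep level of Rorb, and the layer 2/3-like one, at 86.7 CPM, was below it. On the deep side, Foxp2 stood at 219 against 24.9 CPM, a log2 ratio of 3.14 (3.01 to 3.27; libraries 1.97 to 3.93). Fezf2 stood at 14.8 against 1.80 CPM (3.04, interval 2.56 to 3.55; libraries 1.79 to 5.20), and its upper-layer level rests on 38 UMIs. The log2 ratio of 5.20 came from library 1, where Fezf2 stood at 0 CPM in the layer 2/3-like and 1.13 CPM in the layer 4-like cluster. For Tle4 the levels were 236 and 32.3 CPM (2.87, interval 2.75 to 2.98; libraries 2.24 to 3.10), and for Bcl11b 142 and 20.2 CPM (2.82, interval 2.67 to 2.96; libraries 2.39 to 4.06). The smallest log2 ratio of a library among these 4 genes was 1.79.

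Tbr1 and Pou3f1 did not reach 2-fold. Tbr1 stood at 17.4 CPM in deep and 11.3 CPM in upper clusters, a log2 ratio of 0.61 (interval 0.40 to 0.84; libraries 0.06 to 0.99), higher in deep clusters in 6 of 6 libraries. Pou3f1 stood at 12.6 and 18.1 CPM, a log2 ratio of -0.53 (-0.72 to -0.33; libraries -0.70 to -0.35), lower in deep clusters in 6 of 6 libraries.

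**Figure D2:**
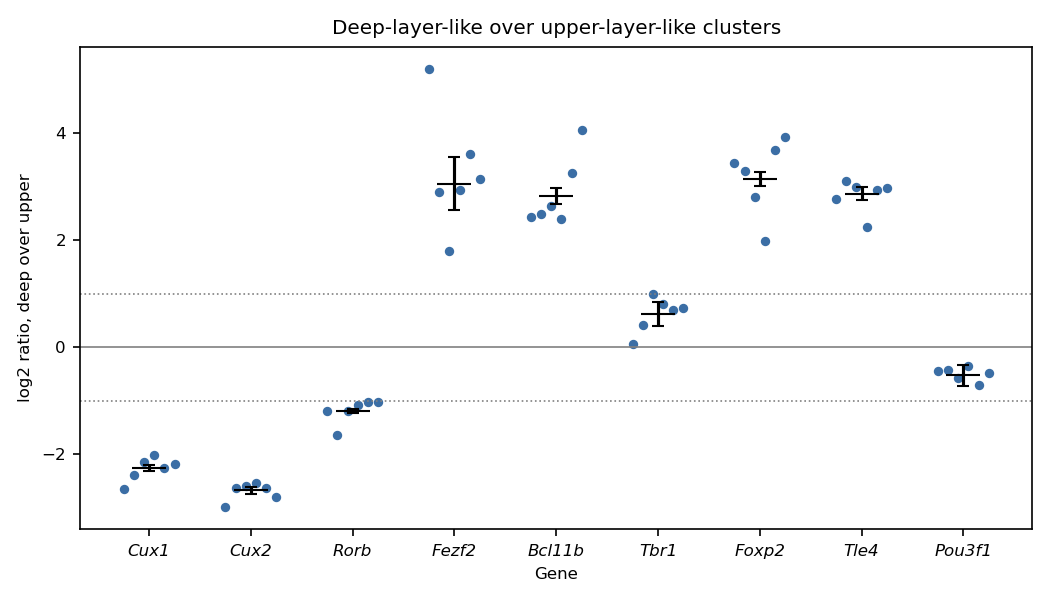
Log2 ratio of CPM, deep-layer-like over upper-layer-like clusters, for each factor: 6 points are the libraries, the black bar and whiskers the ratio over all nuclei with its 95% counting interval, and dotted lines mark 2-fold. Cux1, Cux2 and Rorb lie below the lower dotted line in every library, and Fezf2, Bcl11b, Foxp2 and Tle4 above the upper one in every library.

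Of 28 other genes of the cortical layer programme, listed without regard to how they moved but with earlier results of these data known, 25 had enough UMIs for the deep and upper comparison. Of these, 6 were higher in deep clusters by the same rule (3.48% of the 11996 genes tested) and 2 were lower (1.81% of genes). The median log2 ratio of the 25 was -0.03 against 0.02 over all genes tested. The 6 were Nr4a2 (a nuclear receptor of layer 6b and claustrum neurons, log2 ratio 2.57), Zfpm2 (a GATA cofactor of layer 6, 2.07), Tshz2 (1.98), Etv1 (an ETS factor of layer 5, 1.84), Nfib (1.18) and Sox5 (an SRY-box regulator of deep-layer neurons, 1.00). The 2 lower were Tle1, a Groucho corepressor like Tle4, at -1.50 (libraries -1.77 to -1.21), and Pou3f2, a POU factor like Pou3f1, at -1.14 (libraries -1.39 to -0.86). Tle4 and Tle1 lay on opposite sides in every library. Etv1, Zfpm2 and Tshz2 also belong to the marker lists that named the deep clusters, so their direction is not independent of the names.

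The comparison with other neuronal types asked whether the factors are particular to glutamatergic neurons of cortex and hippocampus. Between Slc17a7-positive and GABA nuclei, 1 of 9 was higher by the same rule (1.9% of 16657 genes with at least 200 UMIs) and 1 was lower (4.85% of genes). The higher was Fezf2, at 8.55 CPM (interval 8.02 to 9.11; libraries 6.20 to 11.3, median 8.49) against 3.95 CPM (libraries 2.07 to 5.74, median 3.24), a log2 ratio of 1.12 (0.96 to 1.28; libraries 0.54 to 1.91). Its level in microglia-class nuclei, which should lack it, was 10.2 CPM (8.32 to 12.4; libraries 5.99 to 13.2, median 9.25), from 102 UMIs. In CPM the Slc17a7-positive level of Fezf2 was thus no higher than in that class. Per nucleus it was higher, with a Fezf2 UMI in 7.93% of Slc17a7-positive and 3.14% of microglia-class nuclei, at median depths of 9475.5 and 2527 UMIs. The share of free RNA in the difference between Slc17a7-positive and GABA nuclei was not tested.

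The lower was Foxp2, at 134 CPM (interval 132 to 136; libraries 125 to 149, median 133) against 316 CPM (libraries 273 to 383, median 322), a log2 ratio of -1.24 (-1.26 to -1.21; libraries -1.62 to -0.87). Its highest class was striatal projection neurons at 482 CPM (474 to 490; libraries 404 to 582, median 492), then Slc17a6-positive nuclei at 327 CPM (libraries 280 to 370, median 323) and the interneuron class at 275 CPM (libraries 234 to 324, median 283). The striatal range lay above both others. On mean UMIs per nucleus in place of CPM, the log2 ratio of Foxp2 was -0.96 and the count of lower factors was 0.

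Bcl11b and Tle4 also peaked in the striatal class. Bcl11b stood there at 421 CPM (interval 413 to 429; libraries 386 to 441, median 422) against 125 CPM (libraries 115 to 153, median 120) in Slc17a7-positive nuclei, without overlap of the libraries. Over the whole GABA class its log2 ratio was -0.71 (libraries -0.81 to -0.45). Tle4 stood at 276 CPM (269 to 282; libraries 257 to 320, median 270) in the striatal class against 146 CPM (libraries 120 to 161, median 148), again without overlap. Both genes were lowest among neurons in the Slc17a6-positive class, Bcl11b at 56.4 CPM (libraries 40.3 to 73.5) and Tle4 at 107 CPM (libraries 96.6 to 117).

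Rorb stood at 254 CPM (interval 251 to 257; libraries 240 to 300, median 248) in Slc17a7-positive and 135 CPM (libraries 75.1 to 171, median 136) in GABA nuclei, a log2 ratio of 0.91 (0.88 to 0.94; libraries 0.59 to 1.72). It was higher in Slc17a6-positive nuclei, at 339 CPM (libraries 291 to 373, median 340), and highest in the astrocyte class, at 486 CPM (481 to 491; libraries 399 to 576, median 502). The astrocyte range lay above that of every other class but the immature one (libraries 113 to 525). Tbr1 stood at 13.5 CPM (libraries 10.3 to 17.4, median 13.7) against 7.29 CPM (libraries 3.35 to 8.66, median 7.70) in GABA nuclei, a log2 ratio of 0.89 (0.77 to 1.02; libraries 0.77 to 1.61). Its level was 13.1 CPM in the astrocyte class and 12.5 CPM in the microglia class, with intervals that overlapped that of Slc17a7-positive nuclei.

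Cux2 stood at 161 CPM (libraries 142 to 176, median 162) in Slc17a7-positive, 163 CPM (libraries 150 to 171, median 162) in Slc17a6-positive and 149 CPM (libraries 134 to 163, median 148) in interneuron-class nuclei, with overlapping ranges. In the striatal class it was 64.1 CPM (61.2 to 67.2; libraries 59.9 to 71.9, median 61.9), below all 3, and its highest class was oligodendrocytes at 234 CPM (libraries 216 to 254, median 228). Cux1 differed little between neuronal classes, from 212 CPM in the interneuron class to 264 CPM in the immature class, with a log2 ratio of -0.01 (-0.03 to 0.02; libraries -0.03 to 0.09) between Slc17a7-positive and GABA nuclei. Its highest class was microglia at 316 CPM (305 to 327; libraries 275 to 341, median 308). Pou3f1 stood at 17.8 CPM (libraries 11.9 to 22.2, median 18.0) in Slc17a7-positive and 16.02 CPM (libraries 7.48 to 20.4, median 16.6) in GABA nuclei, and was highest in the astrocyte class at 40.1 CPM (38.7 to 41.5; libraries 25.7 to 50.5, median 44.4).

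**Figure D3:**
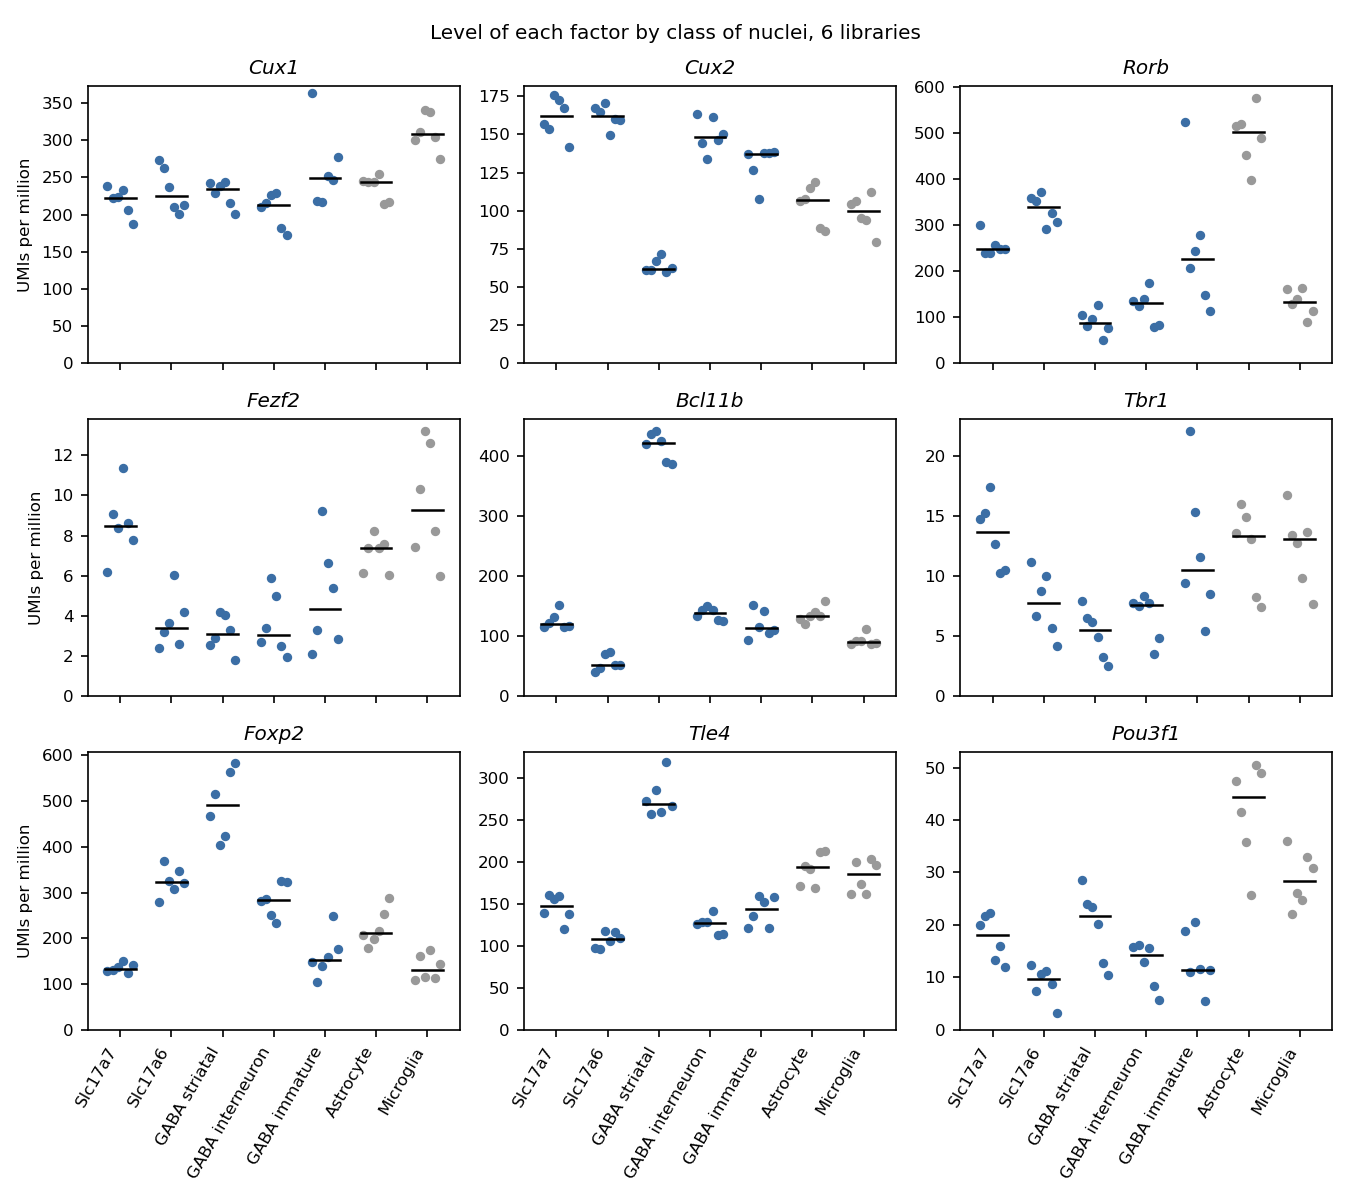
Level of each factor in CPM (y axes start at 0) in 7 classes of nuclei, with 6 points per class for libraries 1 to 6 from left to right and a bar at their median; neuronal classes are blue and the astrocyte and microglia classes grey. The striatal points of Bcl11b (386 to 441), Foxp2 (404 to 582) and Tle4 (257 to 320) lie above all Slc17a7-positive points.

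Of the 28 further layer genes, 26 had enough UMIs here. Of these, 3 were higher by the same rule (1.9% of the 16657 genes tested) and 0 were lower (4.85% of genes). Their median log2 ratio was 0.36 against -0.20 over all genes tested. Among those that were higher, Neurod2 (log2 ratio 1.19) and Neurod6 (1.05) encode basic helix-loop-helix factors of cortical excitatory neurons. Neurod6 stood at 21.6 CPM in Slc17a7-positive nuclei but also at 19.2 CPM in the microglia class, which should lack it. Median depths of these 2 classes were 9475.5 and 2527 UMIs. The share of free RNA in these Neurod6 levels was not tested.

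The count of higher factors was not the same under all alternatives. It was 3 (Rorb, Fezf2 and Tbr1) when nuclei were thinned to 3000 UMIs, when mean UMIs per nucleus were compared, and when Slc17a7-positive nuclei were restricted to layer clusters (added after seeing the data), where Bcl11b joined Foxp2 among the lower at a log2 ratio of -1.07. It was 0 when Slc17a7 was set at 3 or more UMIs (Fezf2 log2 ratio 0.95). Libraries 5 and 6 had the lowest Slc17a7 level in GABA nuclei. It stood at 25.7 and 26.0 CPM there and at 36.1 to 48.6 CPM in libraries 1 to 4, and these 2 libraries also had the largest Slc17a7-positive over GABA log2 ratios of Rorb (1.72 and 1.43), Fezf2 (1.68 and 1.91) and Tbr1 (1.61 and 1.19). Libraries 5 and 6 also had the highest layer-named shares of Slc17a7-positive nuclei, at 58.9% and 59.4% against 41.4% to 47.7% in libraries 1 to 4. Cux2 did not follow, with log2 ratios of 0.48 and 0.18 in libraries 5 and 6 against 0.26 to 0.59 in libraries 1 to 4. The parts of free RNA and of the mix of clusters in these ratios were not tested.

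Co-detection asked which factors occur in the same nucleus. In the 10496 Slc17a7-positive nuclei the median number of factors with a UMI was 3 of 9, with none in 3.00% of nuclei and all 9 in 4 nuclei. A single UMI counts here. For reference, 57.2% of microglia-class nuclei had a Cux1 UMI and 18.4% a Cux2 UMI, at a median depth of 2527 UMIs. For each of the 36 pairs, nuclei with a UMI of both were set against the number expected if the 2 detections were independent within each library and depth decile. Of the 36, 4 pairs were above expectation and 2 were below. Below meant a ratio of at most 0.8 overall and under 1 in each library, and above meant at least the inverse of 0.8 overall and over 1 in each library. As background, 1.08% of 126909 pairs of a factor with any gene found in at least 2% of nuclei were above and 0.444% were below.

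Fezf2 and Bcl11b were found together in 569 nuclei where 431 were expected, a ratio of 1.32 (interval 1.21 to 1.43; libraries 1.196 to 1.48). Of the layer 5 extratelencephalic-like nuclei 33.3% had both (28.3 to 38.7), of the near-projecting-like 35.7% (27.4 to 44.7), and of the layer 2/3-like 0.633% (0.290 to 1.198). Foxp2 and Tle4 shared 2452 nuclei against 1943 expected, a ratio of 1.26 (1.21 to 1.31; libraries 1.13 to 1.47), and 88.0% of corticothalamic-like nuclei had both (85.7 to 90.1). Fezf2 and Foxp2 shared 432 against 342 expected, a ratio of 1.26 (1.15 to 1.39; libraries 1.09 to 1.47). Cux1 and Cux2 shared 3844 against 3057 expected, a ratio of 1.26 (1.22 to 1.30; libraries 1.16 to 1.35), with both in 83.5% of layer 2/3-like, 89.2% of layer 4-like and 4.37% of corticothalamic-like nuclei. Just outside the rule, Tbr1 and Foxp2 had a ratio of 1.23 (1.14 to 1.33; libraries 1.07 to 1.502) and Fezf2 and Tle4 of 1.22. Without library 5 or without library 6, 1 pair (Fezf2 and Bcl11b) remained above the rule, because the ratios of the other 3 were between 1.23 and 1.24.

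Cux2 and Fezf2 were found together in 265 nuclei where 406 were expected, a ratio of 0.652 (interval 0.576 to 0.735; libraries 0.473 to 0.751), the lowest of the 36. Cux2 and Bcl11b shared 1697 nuclei against 2300 expected, a ratio of 0.738 (0.703 to 0.774; libraries 0.610 to 0.792). Cux2 and Foxp2 (0.834), Cux1 and Fezf2 (0.855) and Cux2 and Tle4 (0.856) lay just outside the rule. Both pairs with Cux2 stayed below under every left-out library, gate and detection threshold that was run. In the nuclei of layer-named clusters alone, 8 pairs were above and 6 below, with ratios of 1.59 (libraries 1.36 to 1.86) for Fezf2 and Bcl11b and 0.468 (libraries 0.367 to 0.591) for Cux2 and Fezf2. The share of pairs with any gene was not formed in these nuclei, so the 2 counts have no background.

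When expectation was formed within each cluster, library and 2 depth classes, a comparison added after seeing the data, 0 of 36 pairs met either rule. Ratios then ran from 0.961 (Cux2 and Fezf2) to 1.10 (Tbr1 and Foxp2), with a median of 1.03. For Fezf2 and Bcl11b the ratio was 1.09 (interval 1.01 to 1.19; libraries 1.06 to 1.19), for Foxp2 and Tle4 1.04 (1.00 to 1.09; libraries 1.03 to 1.07) and for Cux1 and Cux2 1.06 (1.03 to 1.10; libraries 1.06 to 1.08). The other pair above expectation, Fezf2 and Foxp2, had a ratio of 1.06 with an interval that spanned 1 (0.960 to 1.16; libraries 1.02 to 1.13). These 4 pairs were above 1 in 6 of 6 libraries, as were 11 of the 36 pairs in all. The share of pairs with any gene was not formed within clusters. Cux2 and Bcl11b had a ratio of 0.970 (0.924 to 1.02; libraries 0.927 to 0.996), below 1 in 6 of 6 libraries, and the interval of Cux2 and Fezf2 spanned 1 (0.849 to 1.08). The depth classes were coarser here than the deciles above. A ratio cannot exceed the inverse of the larger detection share of its 2 genes. Bcl11b was found in 95.2% of extratelencephalic-like, Foxp2 and Tle4 in 93.1% and 93.6% of corticothalamic-like, and Cux2 in 92.8% of layer 2/3-like nuclei. Within such clusters there was little room to meet the rule for pairs above, so the 0 pairs above do not show that co-detection was absent there.

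**Figure D4:**
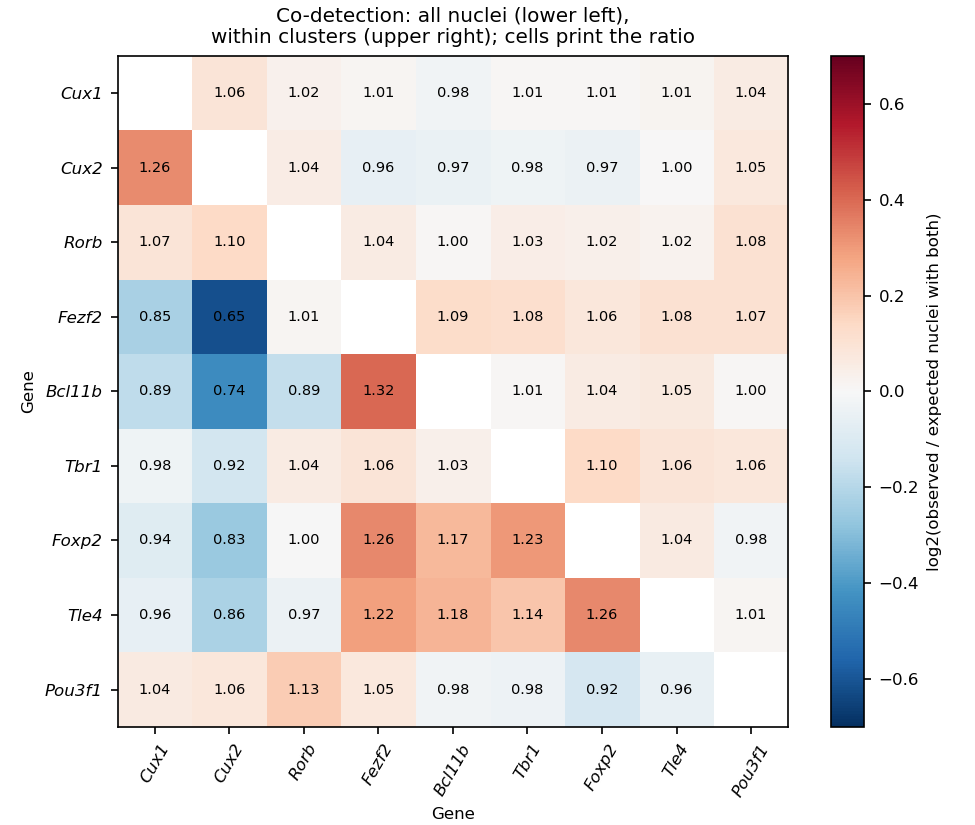
Ratio of observed to expected nuclei with a UMI of both factors, for each of 36 pairs: the lower left gives the ratio within library and depth decile over 10496 Slc17a7-positive nuclei, the upper right the ratio within cluster, library and 2 depth classes. The lower left runs from 0.65 (Cux2 and Fezf2) to 1.32 (Fezf2 and Bcl11b), and the upper right from 0.96 to 1.10.

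The genes most like each factor were named by Pearson's r of log2(CPM + 1) across the 29 clusters, among 11901 genes with at least 500 UMIs. The clusters share libraries and were made from these genes, so r is a description. They include the 16 unnamed clusters, of which 10 matched another cell class best, so r is not limited to types of cortical neurons. Cux1 was most like Gm16599 (r = 0.96), an antisense gene that lies inside it (chromosome 5, 136274996 to 136417894, plus strand), then Cux2 (0.87) and Ntn4 (0.75), which encodes a netrin. Gm16599 stood at 398 CPM (libraries 312 to 452) in the layer 4-like, 210 CPM (libraries 162 to 241) in the layer 2/3-like and 21.9 CPM (libraries 19.0 to 24.5) in the corticothalamic-like cluster. The sources used here do not say whether counting used strand. How far reads of Cux1 and Gm16599, and of Pou3f1 and Gm2164 where they overlap, were counted for the other gene was therefore not tested. Cux2 was most like Gm16599 (0.90), Cux1 (0.87) and Prkg2 (0.81), a cyclic GMP-dependent kinase.

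Rorb was most like Gm15511 (0.75), 9430041J12Rik (0.74) and Col26a1 (0.73). Foxp2 and Tle4 shared Rell1 as the most similar gene (0.79 and 0.81), Tle4 stood second for Foxp2 (0.75, then Gm49692 at 0.74), and Lrrc1 (0.79) and Sema5b (0.78), a semaphorin, followed for Tle4. Bcl11b was most like Gpr176 (0.68), Sbk1 (0.68) and Lmo3 (0.67), and Fezf2 was most like Adam18 (0.67) and Sbk1 (0.65). Tbr1 was most like Stmn1 (0.72), Ncald (0.68) and Ngef (0.67). Pou3f1 was most like Pou3f3 (0.83), a close relative, Diaph3 (0.81) and Pantr2 (0.78), a noncoding gene beside Pou3f3.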

How the data were processed

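Nuclei of mouse forebrain were profiled by droplet single-nucleus RNA sequencing. Per the file headers, the deposited matrix holds UMI counts for each gene in each barcode, as whole numbers, written by Cell Ranger 6.0.0, with no normalization, while the labels name Cell Ranger 2.1.1 and mm10, and the study's methods describe STARsolo alignment, empty-droplet, multiplet and mitochondrial filters and imputation. The sources used here do not say whether the deposited counts had passed those filters or used strand.

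The 9 factors, the gene lists and the rules were chosen with earlier results of these data known. Barcodes under a mitochondrial share of 10% were kept and classed by raw UMIs of marker genes. Levels are summed UMIs per 1000000 (CPM), with exact Poisson intervals, shares have exact Clopper-Pearson intervals, and both are at 95%. Slc17a7-positive nuclei were scaled to 10000 UMIs, log-transformed and clustered without the 9 factors (3000 variable genes, 30 components, 20 neighbours, Leiden resolution 1.0, leidenalg 0.10.2, scanpy 1.11.5). A cluster was named if at least 3 markers of its best list were raised 2-fold, mitochondrial genes were not among its 10 leading genes, no other list had more leading genes, and the list was one of a layer or region. These limits were set after the clusters were seen. Doublets were scored against simulated pairs and kept, and an alternative removed the highest 10% of scores per library. Calls needed 2-fold and the same direction in each library. The rules were tested on simulated data. Genes named are the 9, a list of 28 further layer genes, and for each factor the 3 genes of highest r across clusters. Some genes that these rules name are not reported here. With no key from library to mouse, no test between genotypes was made.

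Depth was 4471 to 5439 UMIs per nucleus (library medians), which limits the low-count genes Fezf2, Tbr1 and Pou3f1 most. Alternatives were other Slc17a7 gates, thinning to 3000 UMIs, other scalings, clusterings, strata and detection thresholds, and leaving out each library.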

Additional observations from a re-analysis of the deposited data

Results flagged for a closer look

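Rorb in Slc17a7-positive nuclei stood apart in 1 of 6 libraries. Library 1 had 300.1 CPM, against 240 to 258 CPM in the other 5, a gap to the nearest library that was a larger part of the whole range than Dixon's 95% limit for 6 samples allows. The 6 libraries mix WT and Npc1-/- mice in an unknown order, so they are not replicates of 1 group. Chance flags about 1 in 20 such sets, and 9 were looked at.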

How the results depend on the processing

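The counts of factors at least 2-fold higher (4) and lower (3) in deep-layer clusters were the same under all 13 alternatives. Of factors higher in Slc17a7-positive than in GABA nuclei (1), the count was 0 with Slc17a7 of at least 3 UMIs, 2 without the highest doublet scores, and 3 with mean UMIs per nucleus, with thinning to 3000 UMIs and with layer-named nuclei. Of factors lower there (1), it was 0 with mean UMIs per nucleus and 2 with layer-named nuclei. Of pairs above expectation (4), the count was 1 to 5 over the left-out libraries, 2 with Slc17a7 of at least 1 UMI, 10 with detection from 2 UMIs, 7 after thinning to 3000 UMIs without depth strata, 6 without the highest doublet scores (adding Fezf2 and Tle4, and Tbr1 and Foxp2), 8 in layer-named nuclei and 0 within clusters. With Slc17a7 of at least 3 UMIs it was again 4, with Tbr1 and Foxp2 in place of Fezf2 and Foxp2. Of pairs below (2), the count was 7 from 2 UMIs, 7 after thinning, 4 without the highest doublet scores, 6 in layer-named nuclei and 0 within clusters. Within clusters, high detection shares left little room to meet the rule for pairs above. Background shares over all genes were formed for the main settings only, and the causes were not tested. Over single factors and pairs, thalamus-like levels included, 514 values stayed within their counting interval, 197 moved beyond it and 0 of those called changed direction. The layer-named alternative for Slc17a7-positive against GABA nuclei, the within-cluster one, the clustering without overlapping antisense genes, the thalamus-like levels without the highest doublet scores and the one without the cluster led by Ntng2, Oprk1 and Nr4a2 were chosen after seeing the data. No paired analysis was possible because the columns carry no key from library to mouse, so the samples of the genotypes could not be paired. The contrasts between groups of nuclei were formed within each library as well, and the range of those ratios is given without a test.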
